A study of Arabidopsis with 8 samples.

Results

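Shoots of Arabidopsis thaliana seedlings that carry mutations in the 4 genes SAUR41, SAUR40, SAUR71 and SAUR72 were compared with shoots of the wild-type accession Col-0. Both groups came from 5-day-old seedlings with no treatment named in the labels, and each holds 2 RNA libraries, so 4 of the 8 libraries of the study were used. The other 4 libraries are from roots and were not used here. Values are FPKM, fragments per kilobase of transcript scaled to the size of the library, which allow for transcript length and sequencing depth. The 16831 genes with a mean of at least 1 FPKM over the 4 shoot libraries were compared, of 25397 genes listed in at least 1 library of the study. A gene that a library does not list was taken as 0. Nothing in the labels ties the 2 libraries of a group to separate cultures of plants, and p-values therefore measure only the spread between these libraries. The sources used here give neither the positions of the mutations nor whether the mutant is a single line.

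SAUR genes (SMALL AUXIN UP RNA) encode short plant proteins, many of which are induced within minutes by auxin. Several SAUR proteins inhibit PP2C.D phosphatases, which keeps plasma membrane proton pumps active, acidifies the cell wall and lets expansins and other wall proteins loosen it. The SAUR41 subfamily is known for effects on cell expansion and for induction by abscisic acid, the hormone of drought and salt responses. Jasmonate, a lipid-derived hormone of wounding and defence, is made from linolenic acid by lipoxygenases, allene oxide synthase, allene oxide cyclases and a reductase. Its active conjugate removes JAZ repressors from MYC transcription factors, and JAZ genes and hormone-degrading enzymes are themselves induced by it as a feedback.

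The library of Col-0 shoot replicate 1 stood apart from the other 3, and this bears on each result. Across the tested genes, log2 values correlated at Pearson r of 0.992 between the 2 mutant libraries, 0.98 and 0.976 between these and Col-0 replicate 2, and 0.911 to 0.947 between Col-0 replicate 1 and the others. The libraries of the mutant listed 22360 and 22477 genes, and those of Col-0 listed 21355 and 21862. The median tested gene stood at 9.68 and 9.89 FPKM in the mutant, against 5.57 FPKM in Col-0 replicate 1 and 8.15 FPKM in Col-0 replicate 2. The number of reads is not in the tables. Read from the most frequent ratio between FPKM values under 0.5, the depth of the mutant libraries was 1.17 and 1.22 times that of Col-0 replicate 1, and the depth of Col-0 replicate 2 was 0.889 times. These are rough values, since the most frequent ratio held only 2.56% to 2.89% of the genes compared. Photosynthesis and root hair markers went with the shoot label, while shoot meristem markers were low. The 4 shoot meristem markers summed to 8.805 and 7.331 FPKM in the mutant and 5.907 and 7.671 FPKM in Col-0. Of these, CLV3 was not listed in any of the 4 libraries, and WUS only in mutant replicate 1, at 0.0198 FPKM. The 48 nuclear photosystem, antenna and Rubisco genes summed to between 157500 and 242900 FPKM, while the 5 root hair markers summed to at most 0.4756 FPKM and the 3 seed storage markers to at most 0.4949 FPKM. The 5 other root markers summed to 709.9 and 648.8 FPKM in the mutant and 603.0 and 658.1 FPKM in Col-0, nearly all from PYK10, a beta-glucosidase gene at 703 and 643 FPKM in the mutant and 594 and 649 FPKM in Col-0. The 5 endodermis markers, a root tissue, summed to 2.388 and 2.272 FPKM in the mutant, 6.033 FPKM in Col-0 replicate 1 and 2.105 FPKM in Col-0 replicate 2.

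The difference between the genotypes followed the length of genes. When the tested genes were ordered by the span of their locus and cut into 5 equal groups, the median log2 difference of mutant minus Col-0 was -0.05 in the shortest group (150 to 1547 bp) and 0.74 in the longest (4109 to 35398 bp). Col-0 replicate 1 carried most of this. Against Col-0 replicate 1 alone the mutant stood at -0.15 in the shortest and 1.22 in the longest group, and against Col-0 replicate 2 alone at 0.07 and 0.28. The 2 mutant libraries differed from each other by 0.02 and -0.04 in the same groups. Across genes, Spearman's rho between the difference and the span was 0.53 with both Col-0 libraries, 0.25 against replicate 2 alone, and -0.61 for Col-0 replicate 1 minus Col-0 replicate 2. RNA quality cannot be read from these tables, and its part in the trend was not tested. For this reason most list medians and main genes are given for the 4 libraries and without Col-0 replicate 1. Most list medians are also given after the trend with span had been removed within each library.

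**Figure D1:**
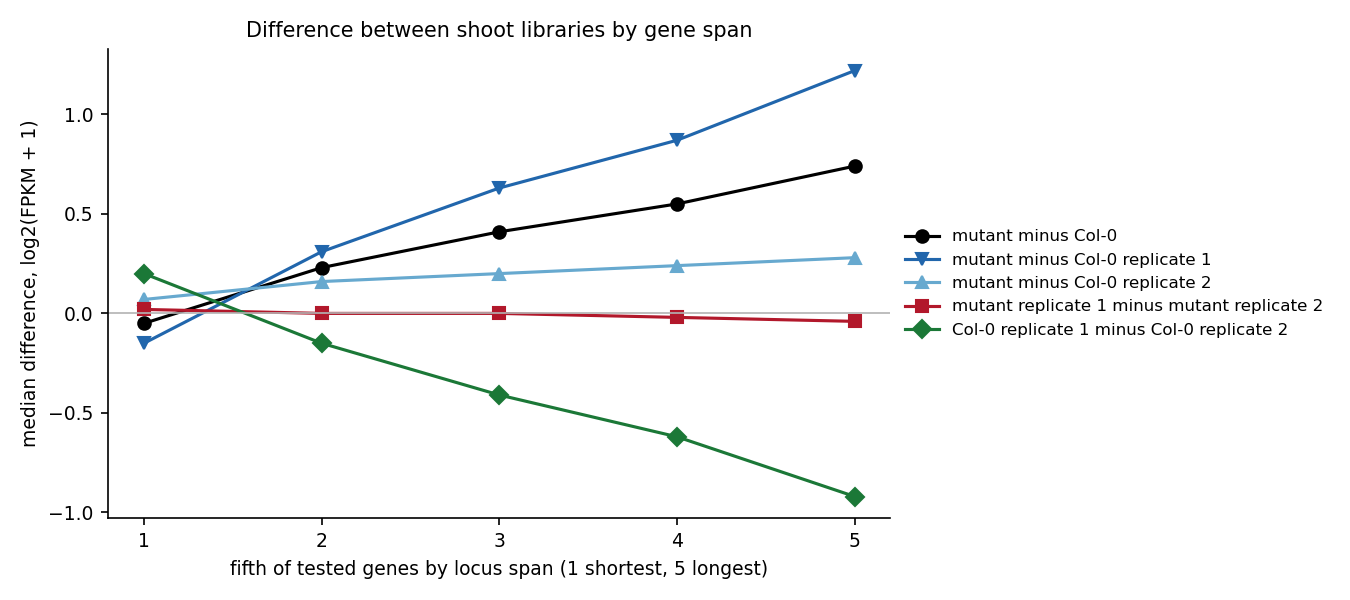
Median difference in log2(FPKM + 1) between shoot libraries (vertical axis) for the 16831 tested genes in 5 equal groups by locus span (horizontal axis, shortest to longest). The line for mutant minus Col-0 replicate 1 climbs to 1.22 and that for mutant minus Col-0 replicate 2 to 0.28, the line for Col-0 replicate 1 minus replicate 2 falls to -0.92, and the line between the mutant libraries runs between 0.02 and -0.04.

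In the shoot as a whole, 77.7% of the genes had a positive change (50.4% after median-ratio rescaling, 48.4% after quantile normalization and 45.5% with the span trend removed), and the median log2 change (mutant over Col-0, of FPKM plus 1) was 0.38. Changes are therefore given relative to this median unless the text says otherwise. In limma 0 of 16831 genes passed an adjusted p of 0.05 in either direction (0.00% higher and 0.00% lower), with 2333 genes higher (13.9%) and 188 lower (1.12%) at an unadjusted p under 0.05. The smallest adjusted p was 0.259, for PI4KG3. Every gene named here thus missed the threshold in the fit of the 4 libraries, and the values below are descriptions of these libraries. With 2 libraries a side, an exact permutation test of 1 gene cannot go below p = 0.33.

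The count of genes past the threshold depended on the fit. When the 4 root libraries were added so that all 8 shared 1 spread per gene, 436 genes were higher and 23 lower in mutant shoot at an adjusted p under 0.05 (limma). Leaving out Col-0 replicate 1 gave 4510 higher and 489 lower, a fit in which the single Col-0 library left is assumed to vary like the mutant libraries. Leaving out a mutant library gave 29 higher (replicate 1) or 5 higher (replicate 2) and 0 lower, and leaving out Col-0 replicate 2 gave 10456 higher and 2017 lower. Rescaling each library by its median ratio in the fit without Col-0 replicate 1 gave 1287 higher and 1173 lower. With all 4 libraries, removing the span trend gave 0 of either kind, with 1467 higher and 1533 lower at an unadjusted p under 0.05.

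Size and overlap were therefore used to pick out genes. The mutant libraries were both higher than the 2 Col-0 libraries for 10175 genes (60.5%), and both lower for 1666 (9.90%). After median-ratio rescaling the shares were 32.1% and 30.1%. A change of at least 2-fold from the median, without overlap before or after rescaling, was met by 488 genes on the high side (2.90%) and 196 on the low side (1.16%). The 488 had a median span of 4025 bp, the 196 one of 956 bp, and all tested genes one of 2513 bp. Of these, 116 genes on the high side (0.689%) and 20 on the low side (0.119%) were also 2-fold from the median without Col-0 replicate 1 and after removal of the span trend, with median spans of 2630 and 1668 bp. They are called held below. Either condition alone left 126 (0.749%) and 40 (0.238%) without Col-0 replicate 1, and 236 (1.40%) and 41 (0.244%) after removal of the trend. Of the 116 held genes, 90 passed in the fit of all 8 libraries, against 459 of all 16831 tested genes. Held genes were picked by size and overlap in the same shoot values, so this count is no independent support.

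The mutated genes come first. SAUR72 (AT3G12830, chromosome 3, 4078651 to 4079608, in the TAIR10 coordinates of the tables) stood at 4.18 and 3.96 FPKM in the mutant, against 9.41 and 7.57 FPKM in Col-0. SAUR71 (AT1G56150, chromosome 1, 21017385 to 21017939) stood at 3.28 and 3.02 FPKM in the mutant, against 7.91 and 5.22 FPKM in Col-0. For both genes the groups did not overlap, and the mutant mean was under 0.5 times the Col-0 mean. The log2 changes before the median was subtracted were -0.90 (SE 0.26) and -0.84 (SE 0.29), with a limma adjusted p of 0.299 for each. Relative to the median they were -1.28 and -1.23, -0.96 and -0.79 without Col-0 replicate 1, and -0.84 and -0.67 with the span trend removed, so that neither gene was held. SAUR41 and SAUR40 were under the filter. SAUR41 stood at 1.09 and 0.845 FPKM in the mutant and 1.21 and 0.745 FPKM in Col-0, which overlap. SAUR40 was not listed in either mutant library and stood at 0.099 and 0.0561 FPKM in Col-0. An FPKM value covers a whole gene, so it does not tell an intact transcript from one that a mutation has cut.

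Of the tested genes PI4KG3 had the largest increase among those whose groups did not overlap. PI4KG3 (AT5G24240), which by its name is a gamma-class phosphoinositide kinase gene, stood at 11.8 and 12.4 FPKM in the mutant, against 0.065 and 0.0445 FPKM in Col-0. The gene was thus nearly silent in both Col-0 libraries and moderately expressed in both mutant libraries. Its change was 3.25 above the median (SE 0.23), 3.45 without Col-0 replicate 1 and 2.89 with the span trend removed. HEI10 (AT1G53490), known for its part in crossovers during meiosis, stood at 3.75 and 4.09 FPKM in the mutant and 0.443 and 0.316 FPKM in Col-0, a change of 1.45. Each of these genes shares a merged locus with neighbours in the tables, and the sources used here do not say whether the counting used strand. In shoot the neighbours of PI4KG3 were close to 0, AT5G24230 at 0.146 and 0.101 FPKM in the mutant and 0.196 and 0.0285 FPKM in Col-0. MUM4, the UDP-rhamnose synthase gene beside HEI10, stood at 19.3 and 17.8 FPKM in the mutant and 7.64 and 18.4 FPKM in Col-0, where the low value is again that of replicate 1.

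Jasmonate genes made up 21 of the 116 held genes on the high side. Of 53 tested genes on 4 lists (synthesis, signalling, turnover and responsive effectors), 46 had no overlap with Col-0 on the high side (60.5% of all genes) and 0 on the low side (9.90%), and 36 had none on the high side after rescaling (32.1%). At least 2-fold above the median were 21 of the 53 (39.6%, against 2.90% of all genes), and all 21 were held (39.6%, against 0.689% of all genes). The median change of the 53 was 0.64 with the 4 libraries and 0.70 without Col-0 replicate 1. The lists were drawn up with earlier results of these libraries known, so these counts are no independent evidence of a direction. In bulk tissue, fewer cells of a type and less RNA per cell cannot be told apart.

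Among the synthesis enzymes, OPR3, the reductase that turns 12-oxo-phytodienoic acid towards jasmonate (AT2G06050, chromosome 2, 2359114 to 2362302), stood at 241 and 256 FPKM in the mutant, against 56.2 and 85 FPKM in Col-0. Its change was 1.45 above the median (SE 0.24) and 1.34 without Col-0 replicate 1. OPCL1, the ligase that activates the OPR3 product for chain shortening, stood at 218 and 271 FPKM in the mutant and 46.8 and 91.2 FPKM in Col-0. The groups were well apart for both genes. The allene oxide cyclase AOC3 stood at 34 and 56.3 FPKM in the mutant, against 9.52 and 12.2 FPKM in Col-0. The 13-lipoxygenases LOX3 and LOX4 had changes of 1.28 and 1.36. AOC1 had a change of 1.15, but AOC1, AOC2 and AOC3 lie side by side and resemble each other, so reads may be shared among them. Not every step stood high. AOS, the allene oxide synthase that stands between LOX and AOC, stood at 371 and 410 FPKM in the mutant and 425 and 299 FPKM in Col-0, and its groups overlap. LOX2, a chloroplast lipoxygenase of leaves, was 0.40 above the median, and 0.17 without Col-0 replicate 1. AOC4, the other cyclase gene (-0.61), and PKT3, a thiolase gene of the chain shortening (-0.51), lay below the median. In all, 13 of 16 tested synthesis genes were above both Col-0 values (60.5% of all genes). After rescaling 10 were above (32.1%) and 2 below (30.1%). Of the 16, 6 were held (0.689% of all genes). The median of the list was 0.39, 0.24 without Col-0 replicate 1 and 0.26 with the span trend removed.

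Among the signalling genes the JAZ repressors stood highest. TIFY7, also called JAZ9 (AT1G70700, chromosome 1, 26654768 to 26657064), was the most abundant of them in the mutant, with 319 and 365 FPKM against 64.2 and 112 FPKM in Col-0. Its change was 1.61 above the median (SE 0.30) and 1.40 without Col-0 replicate 1. JAZ10, a repressor with splice forms that resist degradation, stood at 39.8 and 45.8 FPKM in the mutant and 8.83 and 11.4 FPKM in Col-0, a change of 1.60 (SE 0.22). JAZ5 stood at 39.9 and 52.7 FPKM in the mutant and 9.8 and 13.6 FPKM in Col-0. In each of these the lower mutant value was more than 2 times the higher Col-0 value. All 12 tested genes listed as JAZ, among them AT3G22275 (which the reference annotation leaves unnamed, change 1.40), were above both Col-0 values (60.5% of all genes). Their changes ran from 0.08 (JAZ11, -0.03 after quantile normalization) to 1.61. Of the 12, 8 were held (0.689% of all genes). JAZ7 and JAZ8 differed from most genes in that Col-0 replicate 1 was the higher Col-0 value: JAZ7 stood at 20.8 and 25.5 FPKM in the mutant and 9.24 and 5.35 FPKM in Col-0. JAZ4 was under the filter, at 0.329 and 0.423 FPKM in the mutant and 0.307 and 0.153 FPKM in Col-0.

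The transcription factors and the receptor showed little of this. MYC2, the main activator of the pathway, stood at 243 and 296 FPKM in the mutant and 158 and 214 FPKM in Col-0, only 0.16 above the median. MYC3 and MYC4, its close relatives, had changes of 0.25 and -0.56 (-0.14 and -0.48 without Col-0 replicate 1), and their groups overlapped. COI1, the jasmonate receptor, stood at 13.9 and 12.8 FPKM in the mutant and 7.51 and 14.2 FPKM in Col-0, so its higher Col-0 value exceeds both mutant values. AIB (JAM1) and BHLH13 (JAM2), relatives of MYC2 that repress, had changes of 0.96 and 0.87, which came to 0.41 and 0.30 without Col-0 replicate 1. Of the 21 tested signalling genes 17 were above both Col-0 values (60.5% of all genes). After rescaling 14 were above (32.1%) and 2 below (30.1%). Over the 21 genes the median was 0.96, 0.70 without Col-0 replicate 1 and 0.96 with the span trend removed.

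The turnover enzymes, which inactivate jasmonate or its conjugate, had the highest median of all lists, at 1.18. It was 1.2 without Col-0 replicate 1 and 1.14 with the span trend removed. All 8 tested members were above both Col-0 values (60.5% of all genes), 7 after rescaling (32.1%), and 5 were held (0.689%). AT5G05600 (chromosome 5, 1672120 to 1674739), a list member that the reference annotation leaves unnamed, stood at 38.9 and 41.9 FPKM in the mutant, against 7.11 and 9.78 FPKM in Col-0. Its change was 1.76 above the median (SE 0.23). The amidohydrolases that split amino acid conjugates were represented by IAR3, at 40.6 and 47.5 FPKM in the mutant and 7.31 and 13.6 FPKM in Col-0, and by ILL6, with a change of 1.30. Of the P450 enzymes that oxidise the active conjugate, CYP94B1 stood at 26.3 and 25.2 FPKM in the mutant and 6.89 and 7.8 FPKM in Col-0, and CYP94C1 had a change of 1.05. Both CYP94 genes were tight within each genotype. CYP94B3 was less shifted, at 12.6 and 14.4 FPKM in the mutant and 9.53 and 5.62 FPKM in Col-0.

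**Figure D2:**
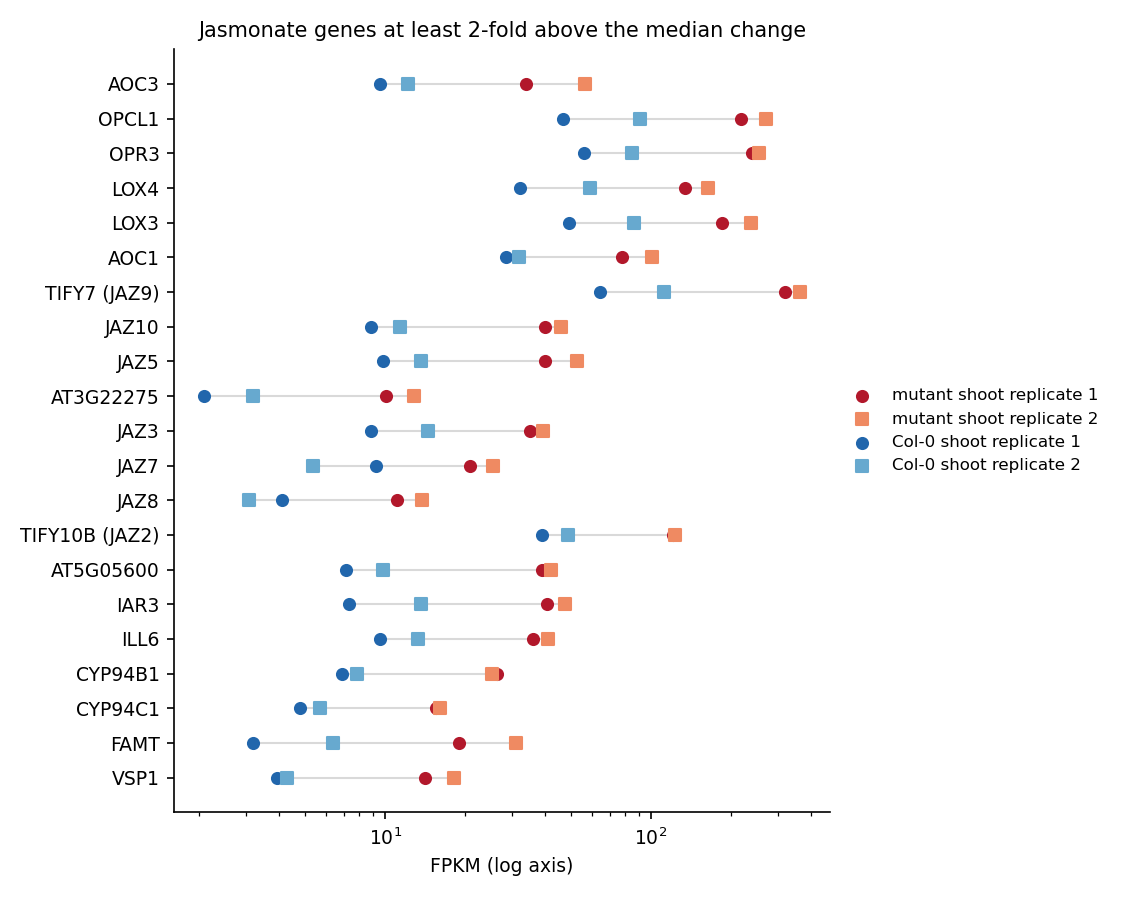
FPKM (horizontal log axis) in each of the 4 shoot libraries for the 21 jasmonate genes at least 2-fold above the median change, ordered by list (synthesis, signalling, turnover, effectors) and then by change. Points are single libraries, mutant in red and orange and Col-0 in blues; in every row both mutant points lie to the right of both Col-0 points, and Col-0 replicate 1 is the lowest point in all rows but JAZ7 and JAZ8.

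Downstream effectors were uneven in the size of their change. All 8 tested members were above both Col-0 values (60.5% of all genes), 5 after rescaling (32.1%), and 2 were held (0.689%). The median of the list was 0.48, 0.56 without Col-0 replicate 1 and 0.66 with the span trend removed. VSP1, a vegetative storage protein induced by jasmonate, stood at 14.1 and 18.1 FPKM in the mutant, against 3.93 and 4.28 FPKM in Col-0, a change of 1.35 (SE 0.25). FAMT, a farnesoic acid carboxyl methyltransferase gene, stood at 18.9 and 31.2 FPKM in the mutant and 3.17 and 6.35 FPKM in Col-0. VSP2, at 72.5 and 73.2 FPKM in the mutant and 36.2 and 37.3 FPKM in Col-0, was 0.59 above the median. The 4 values of VSP2 made 2 tight pairs. The defensin PDF1.2, an output of jasmonate acting with ethylene, was not listed in any of the 4 libraries, and its activator ORA59 stood at 0.118 and 0.204 FPKM in the mutant and 0.501 and 0.207 FPKM in Col-0. PDF1.2 and ORA59 were both under the filter. CORI3, a lyase gene named for its induction by the jasmonate mimic coronatine, lay 0.11 below the median. It stood at 18.7 and 20.7 FPKM in the mutant and 13.8 and 18.5 FPKM in Col-0, without overlap before rescaling.

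Of 35 tested abscisic acid genes, 31 were above both Col-0 values (60.5% of all genes), 27 after rescaling (32.1%), and 1 was below (9.90%). The median was 0.54 above that of all genes, 0.42 without Col-0 replicate 1 and 0.58 with the span trend removed. At least 2-fold above the median were 6 (2.90% of all genes), of which 3 were held (0.689%). RD20, a calcium-binding caleosin gene induced by drought (AT2G33380, chromosome 2, 14144831 to 14146471), stood at 21.2 and 22.1 FPKM in the mutant, against 3.66 and 4.87 FPKM in Col-0. Its change was 1.73 above the median (SE 0.24) and 1.75 without Col-0 replicate 1. HAI1, a clade A phosphatase that restrains abscisic acid signalling, stood at 15.3 and 16.3 FPKM in the mutant and 3.61 and 5.43 FPKM in Col-0. The dehydrin ERD10 stood at 143 and 168 FPKM in the mutant and 26.8 and 65.7 FPKM in Col-0. For ERD10 the distance between the Col-0 libraries is large, and its change of 1.47 came to 1.03 without replicate 1. LTI78, a gene induced by cold and drought, and the homeobox gene HB-12 were 2-fold above the median with 4 libraries (1.43 and 1.16) but not without Col-0 replicate 1 (0.84 and 0.88). NCED3, the rate-limiting enzyme of synthesis under drought, stood at 67.8 and 70.3 FPKM in the mutant and 51 and 65.8 FPKM in Col-0, a change of -0.13, or 0.11 after quantile normalization. The dehydrin RAB18 went the other way, with 18.2 and 15.4 FPKM in the mutant and 24.6 and 22 FPKM in Col-0.

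All 15 tested genes of calcium and sodium transport were above both Col-0 values (60.5% of all genes), 10 after rescaling (32.1%), and the median was 0.60 above that of all genes. This list is made of long genes (median span 4196 bp), and its median was 0.36 without Col-0 replicate 1 and 0.36 with the span trend removed. Of the 15, 4 were at least 2-fold above the median (2.90% of all genes), and 1 of these was held, ACA1 (0.689%). ACA1 (AT1G27770), a calmodulin-regulated calcium pump, stood at 133 and 151 FPKM in the mutant, against 28.4 and 57.9 FPKM in Col-0, a change of 1.40 (SE 0.36). CAX1, the vacuolar calcium and proton exchanger, stood at 83.5 and 85.4 FPKM in the mutant and 21.5 and 35.4 FPKM in Col-0. Its changes were 1.19, 1.03 without Col-0 replicate 1 and 0.97 with the span trend removed. The related pumps ACA10 and ACA11 were 1.34 and 1.23 above the median, and 0.89 and 0.72 without Col-0 replicate 1. The sodium transporter HKT1 stood at 3.94 and 3.56 FPKM in the mutant and 2.16 and 3.53 FPKM in Col-0, a change of -0.06.

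WRKY factors, many of which act in defence, were spread over a wide range. Of 33 tested members 31 were above both Col-0 values (60.5% of all genes) and 23 after rescaling (32.1%). The median was 0.25 above that of all genes, 0.20 without Col-0 replicate 1 and 0.24 with the span trend removed. WRKY18 (AT4G31800, chromosome 4, 15383201 to 15385029), a regulator of the pathogen response, stood at 32 and 52.1 FPKM in the mutant, against 5.86 and 9.23 FPKM in Col-0, a change of 1.94 (SE 0.34). WRKY30, another member of the family, stood at 2.9 and 4.79 FPKM in the mutant and 0.432 and 0.603 FPKM in Col-0. Both were held (0.689% of all genes), and in both the mutant replicates differed by more than 1.5 times. WRKY25 was 1.04 above the median and 0.71 without Col-0 replicate 1. Salicylate genes had a median of 0.27, or 0.18 without Col-0 replicate 1. EDS1, a lipase-like immune regulator, stood at 14.1 and 17.4 FPKM in the mutant and 3.01 and 7.93 FPKM in Col-0. Its change of 1.1 came to 0.7 without Col-0 replicate 1. The marker gene PR5 stood at 2.46 and 2.72 FPKM in the mutant and 5.34 and 3.97 FPKM in Col-0.

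Genes of touch, wounding and cold lay on both sides of the median. Many of them react within minutes to handling of plants. Of 25 tested members 2 were at least 2-fold above the median and 5 at least 2-fold below it (against 2.90% and 1.16% of all genes). TCH3, a calmodulin-like touch gene, stood at 313 and 468 FPKM in the mutant, against 79.7 and 133 FPKM in Col-0, a change of 1.5 (SE 0.33). MPK3, a kinase of wound and pathogen signalling, was 1.06 above the median and 0.81 without Col-0 replicate 1. The cold regulators lay on the other side. CBF2 stood at 36.3 and 49.5 FPKM in the mutant, against 99.9 and 79.6 FPKM in Col-0, a change of -1.44 (SE 0.23). Its neighbours CBF1 and DREB1A (CBF3) had changes of -1.12 and -1.04. Without Col-0 replicate 1 the 3 CBF genes stood at -1.09, -0.86 and -1.10, and with the span trend removed at -0.99, -0.67 and -0.58. ERF5, an ethylene response factor (-1.12), and DIC2, a mitochondrial dicarboxylate carrier (-1.0), came to -0.70 and -0.65 without Col-0 replicate 1. TCH2 and TCH4, the other touch genes, stood at 126 and 178 FPKM and at 205 and 327 FPKM in the mutant, against 214 and 143 FPKM and 200 and 144 FPKM in Col-0. Within this list mutant replicate 2 was the higher mutant library for each gene named here. The median of the list was -0.43, -0.14 without Col-0 replicate 1, -0.14 without mutant replicate 1 and -0.72 without mutant replicate 2.

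Cell wall loosening, the process that SAUR proteins are known to promote, showed a split between gene families. Of 18 tested expansins 12 were below both Col-0 values (9.90% of all genes) and 3 above (60.5%), and the median was -0.67, -0.32 without Col-0 replicate 1 and -0.50 with the span trend removed. EXPA8 (AT2G40610, chromosome 2, 16948863 to 16950557) stood at 50.3 and 46.5 FPKM in the mutant, against 126 and 90.1 FPKM in Col-0, a change of -1.51 (SE 0.22) that was held. EXPA1 stood at 95.3 and 83.6 FPKM in the mutant and 140 and 134 FPKM in Col-0, and EXPA15 at 22.5 and 19.8 FPKM in the mutant and 32.5 and 33 FPKM in Col-0. The 3 expansin-like A genes were the exception. EXLA1 stood at 28.7 and 29.6 FPKM in the mutant, against 7.32 and 8.24 FPKM in Col-0, a change of 1.40 (SE 0.21), and EXLA2 and EXLA3 were 0.51 and 0.30 above the median. EXLA1 shares a merged locus with another gene. The xyloglucan endotransglucosylases, which cut and rejoin wall xyloglucan, had a median near 0 (-0.08, 0.17 without Col-0 replicate 1 and 0.14 with the span trend removed). Of 19 tested members 2 were held on the high side (0.689% of all genes), XTH18 and XTR6. XTH18 stood at 40.8 and 65.4 FPKM in the mutant and 11 and 11.3 FPKM in Col-0, a change of 1.73. XTR6 stood at 17.1 and 19.8 FPKM in the mutant and 6.14 and 5.7 FPKM in Col-0, a change of 1.1.

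The proton pumps are the proteins on which SAUR proteins act through the phosphatases. HA1 and HA2, the main plasma membrane ATPases, stood at 173 and 171 FPKM and at 42.5 and 41 FPKM in the mutant, against 123 and 180 FPKM and 32.1 and 44 FPKM in Col-0. In both, the higher Col-0 value exceeded both mutant values, and the changes were -0.17 (0.18 after quantile normalization) for HA1 and -0.24 for HA2. Of the 15 tested pumps and PP2C.D phosphatases 11 were above both Col-0 values (60.5% of all genes) and 1 below (9.90%). After rescaling 8 were above (32.1%) and 5 below (30.1%). The median was 0.34, 0.05 without Col-0 replicate 1 and 0.02 with the span trend removed. PP2C6, AT5G06750 and HA5 had changes of 0.72, 0.67 and 0.66, and of 0.61, 0.42 and 0.27 without Col-0 replicate 1. The member below both Col-0 values was the clade D phosphatase gene AT5G02760, at 9.52 and 9.98 FPKM in the mutant and 14.1 and 19.4 FPKM in Col-0. Its change of -1.09 was held (0.119% of all genes). AT5G02760 and AT5G06750 each share a merged locus. Of the other SAUR genes 34 were tested, 11 lay below both Col-0 values (9.90% of all genes) and 2 above (60.5%). The median was -0.48, -0.18 without Col-0 replicate 1 and 0.05 with the span trend removed. These are mostly short genes (median span 636 bp), and the part of span in their median was not tested. The 34 include AT5G18030 and AT5G01830, which both carry the name SAUR21 and span 504 and 2475 bp. Whether AT5G01830 encodes a SAUR protein was not checked. AT4G38860, also called SAUR16, stood at 14.7 and 10.9 FPKM in the mutant and 30 and 23.4 FPKM in Col-0. Early auxin genes had a median of -0.01. IAA2 was their exception, at 42 and 58.8 FPKM in the mutant and 13.5 and 22.5 FPKM in Col-0. Its change of 1.08 came to 0.91 without Col-0 replicate 1.

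**Figure D3:**
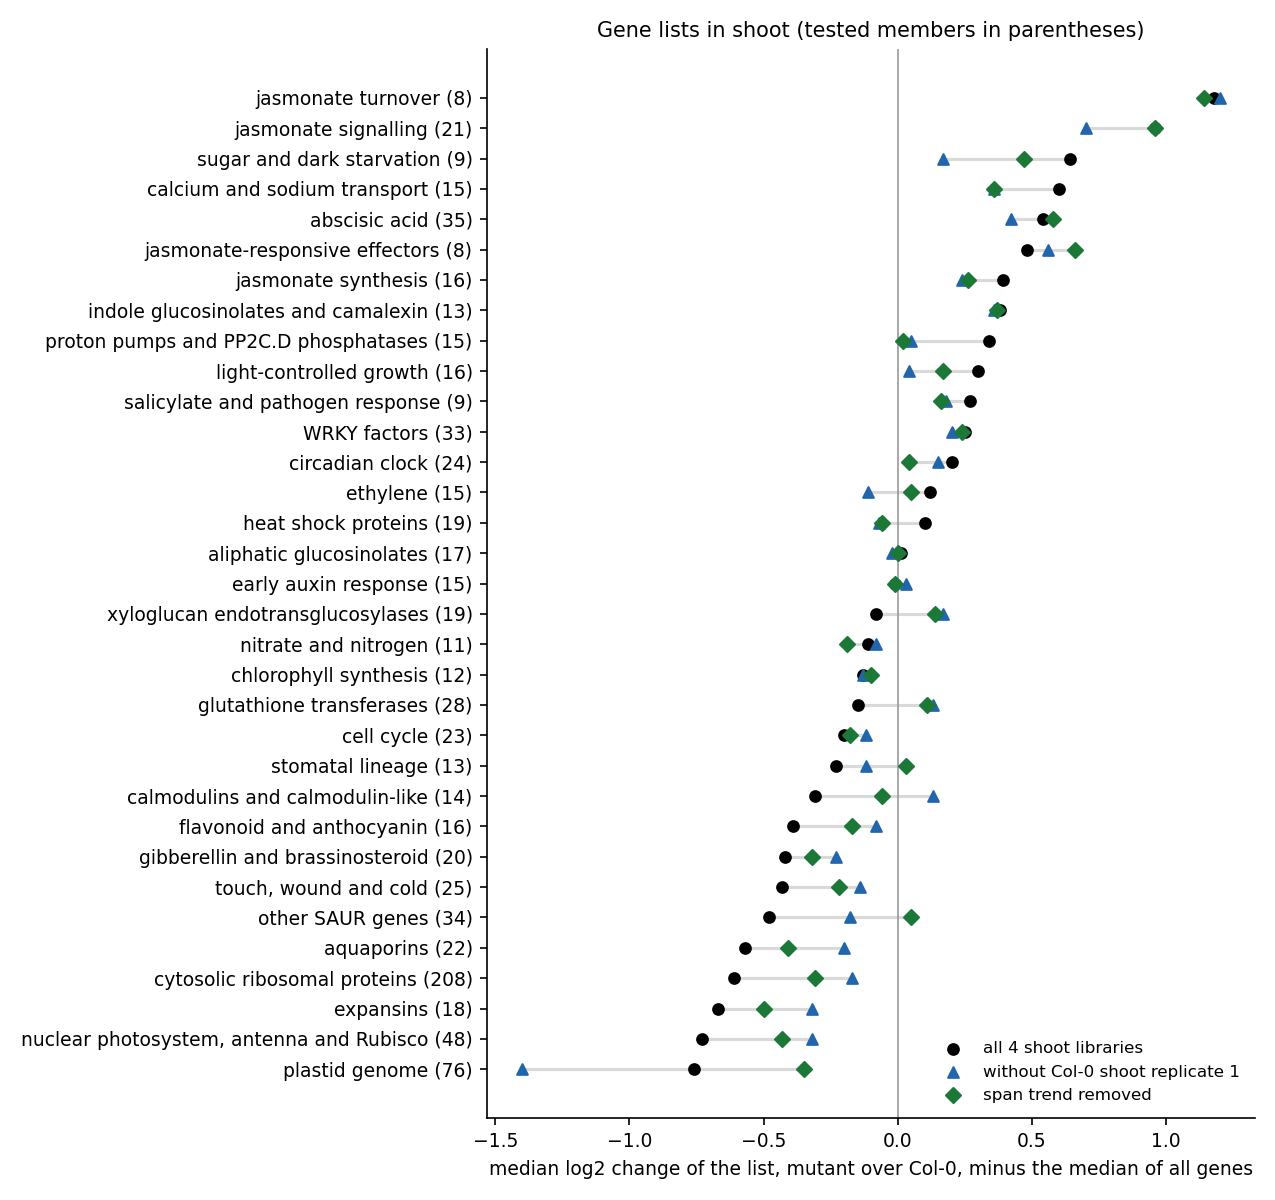
Median log2 change of each gene list, mutant over Col-0, minus the median of all tested genes (horizontal axis), with the number of tested members after each name. Circles use all 4 shoot libraries, triangles leave out Col-0 shoot replicate 1 and diamonds have the span trend removed: jasmonate turnover stays between 1.14 and 1.2, while most lists below 0 move towards 0 without Col-0 replicate 1 and the plastid genome moves away from it, to -1.40. The photosystem list, at -0.73, was at 0.02 after quantile normalization, which is not drawn.

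Photosynthesis and ribosome genes were low as groups, by amounts that depended on 1 library. Of 48 tested nuclear photosystem, antenna and Rubisco genes 30 were below both Col-0 values (9.90% of all genes) and 43 after rescaling (30.1%), with a median of -0.73. The median was -0.32 without Col-0 replicate 1, -0.43 with the span trend removed and 0.02 after quantile normalization, so the direction was not kept under every scaling. LHB1B1, an antenna protein gene, stood at 3160 and 3190 FPKM in the mutant, against 7390 and 4860 FPKM in Col-0. The antenna gene CAB1 was not listed in Col-0 replicate 1, while it stood at 16900 and 15900 FPKM in the mutant and 21300 FPKM in Col-0 replicate 2. CAB1 has near-identical copies in CAB2 and CAB3, so its 0 may be a failed estimate and no change is read from it. The 208 tested cytosolic ribosomal protein genes had a median of -0.61, and 59 of them were below both Col-0 values (9.90% of all genes), or 170 after rescaling (30.1%). Their median was -0.17 without Col-0 replicate 1 and -0.31 with the span trend removed. Of the 208 genes 1 was held on the low side (0.119% of all genes). This was RPP3B, an acidic stalk protein gene, at 45.4 and 42.9 FPKM in the mutant and 104 and 87.4 FPKM in Col-0.

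Transcripts of the plastid genome behaved differently. Their 76 tested members had a median of -0.76 with 4 libraries and of -1.40 without Col-0 replicate 1. The value of -1.40 sets both mutant libraries against Col-0 replicate 2 alone, so a difference between replicates adds to it. Summed FPKM of the plastid genome was 7036 and 12040 in the mutant, against 12980 and 21740 in Col-0. The higher mutant sum thus came close to the lower Col-0 sum. In both genotypes replicate 2 had the higher sum, and within each replicate number the mutant sum was the lower. The plastid ribosomal RNA gene RRN16S.1 stood at 1340 and 2460 FPKM in the mutant and 2780 and 4480 FPKM in Col-0, and its identical copy RRN16S.2 had the same values. RBCL, the large subunit of Rubisco, stood at 213 and 357 FPKM in the mutant and 340 and 587 FPKM in Col-0, which overlap. How much non-polyadenylated RNA a library keeps is set by its preparation, and its part in these values was not tested.

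**Figure D4:**
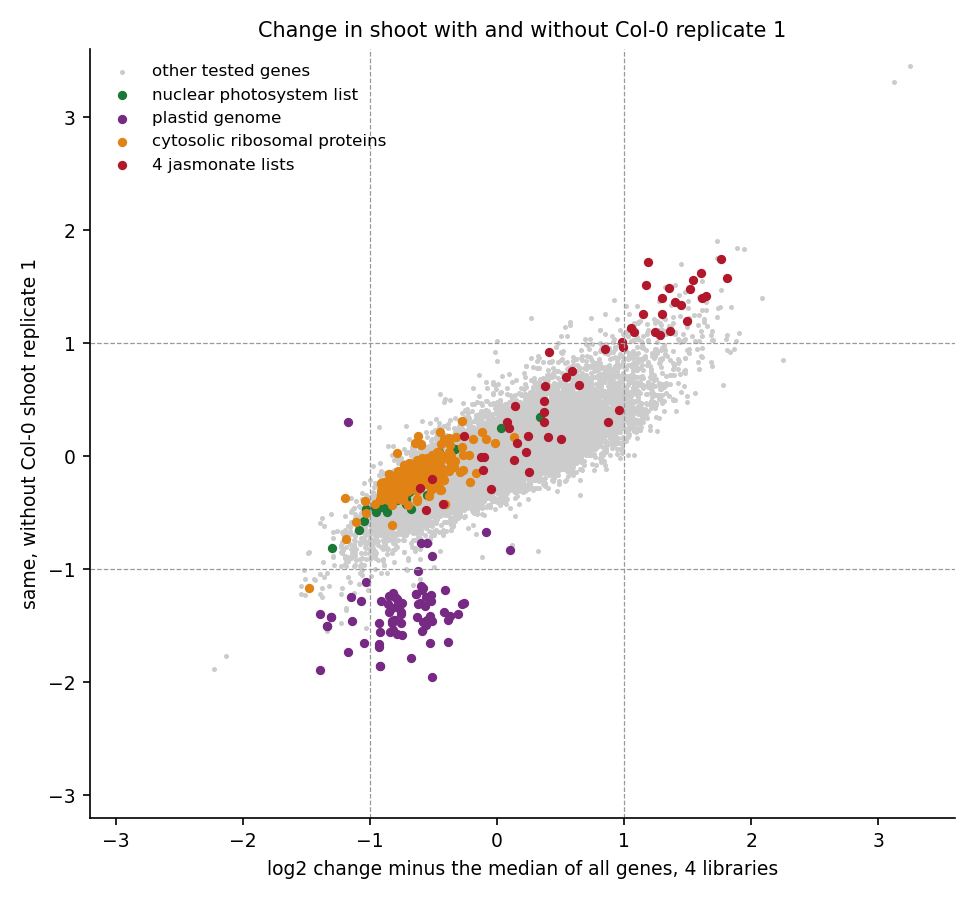
Log2 change of each tested gene minus the median of all genes, with all 4 libraries (horizontal axis) and without Col-0 shoot replicate 1 (vertical axis); dashed lines mark 2-fold, and CAB1 and AT3G41768 lie outside the axes. Both axes use the same mutant libraries and Col-0 replicate 2. The 21 held jasmonate genes (red) lie beyond 1 on both axes. On the vertical axis the ribosomal genes (orange) have a median of -0.17, and the plastid genes (purple) form a cloud of their own near -1.40.

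Of the 15 largest increases among genes of at least 5 FPKM without overlap, all but that of PI4KG3 became smaller without Col-0 replicate 1. RPS6 (AT5G46470), CPuORF24 and SR1 (AT2G22300) came from 1.86, 1.83 and 1.81 to 0.95, 0.92 and 0.94. AT5G40340, AT3G05900, CIP1 and AT1G53430 came from 2.08, 1.90, 1.84 and 1.81 to 1.40, 1.09, 1.32 and 1.07, and were held. AT1G79245, a transcribed pseudogene, stood at 263 and 270 FPKM in the mutant, against 13.3 and 128 FPKM in Col-0, and its change of 2.25 came to 0.85 without replicate 1. CHUP1, which anchors chloroplasts to actin, stood at 75.1 and 73.5 FPKM in the mutant and 5.71 and 41.3 FPKM in Col-0, and 1.78 came to 0.63. WRR4, a resistance gene against white rust, and AT3G44630 had changes of 1.80 and 1.88, and of 1.04 and 1.02 without replicate 1, and both were held. The b-ZIP factor GBF3, at 26.5 and 27.1 FPKM in the mutant and 3.21 and 8.72 FPKM in Col-0, had changes of 1.74 and 1.31. The calcium-linked kinases CPK28 (53 and 60.1 FPKM in the mutant against 7.24 and 20.3 FPKM in Col-0) and CIPK9 (77.6 and 84.1 FPKM in the mutant against 10.4 and 32 FPKM in Col-0) had changes of 1.73 and 1.69, and of 1.23 and 1.11 without replicate 1.

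Few genes were lower in a way that held. AT2G01422, a non-coding RNA gene (chromosome 2, 183940 to 184734), stood at 6.59 and 7.56 FPKM in the mutant, against 31.6 and 24.9 FPKM in Col-0, a change of -2.23 (SE 0.24), or -1.88 without Col-0 replicate 1. AT2G15020 stood at 13.3 and 10.2 FPKM in the mutant and 28.8 and 24.8 FPKM in Col-0. MARD1, named as a mediator of dormancy regulated by abscisic acid, stood at 7.32 and 7.82 FPKM in the mutant and 15.3 and 15.5 FPKM in Col-0, with the Col-0 libraries close together. IPT3, a cytokinin synthesis enzyme, stood at 3.2 and 2.74 FPKM in the mutant and 7.43 and 6.04 FPKM in Col-0. ICL, the isocitrate lyase of seed oil breakdown, stood at 1.69 and 1.07 FPKM in the mutant and 4.81 and 3.8 FPKM in Col-0. GRP3S, a glycine-rich protein gene, stood at 33 and 30.2 FPKM in the mutant and 61.2 and 66.5 FPKM in Col-0. Of the 20 held lower genes, 4 are plastid ribosomal RNA genes in 2 pairs of identical copies, and the mitochondrial ribosomal RNA genes RRN26 and RRN18 are also among them. LBD37, which represses anthocyanin genes when nitrogen is supplied, stood at 47.2 and 51.1 FPKM in the mutant and 79.4 and 75.6 FPKM in Col-0, but its change of -1.03 came to -0.81 without replicate 1.

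**Figure D5:**
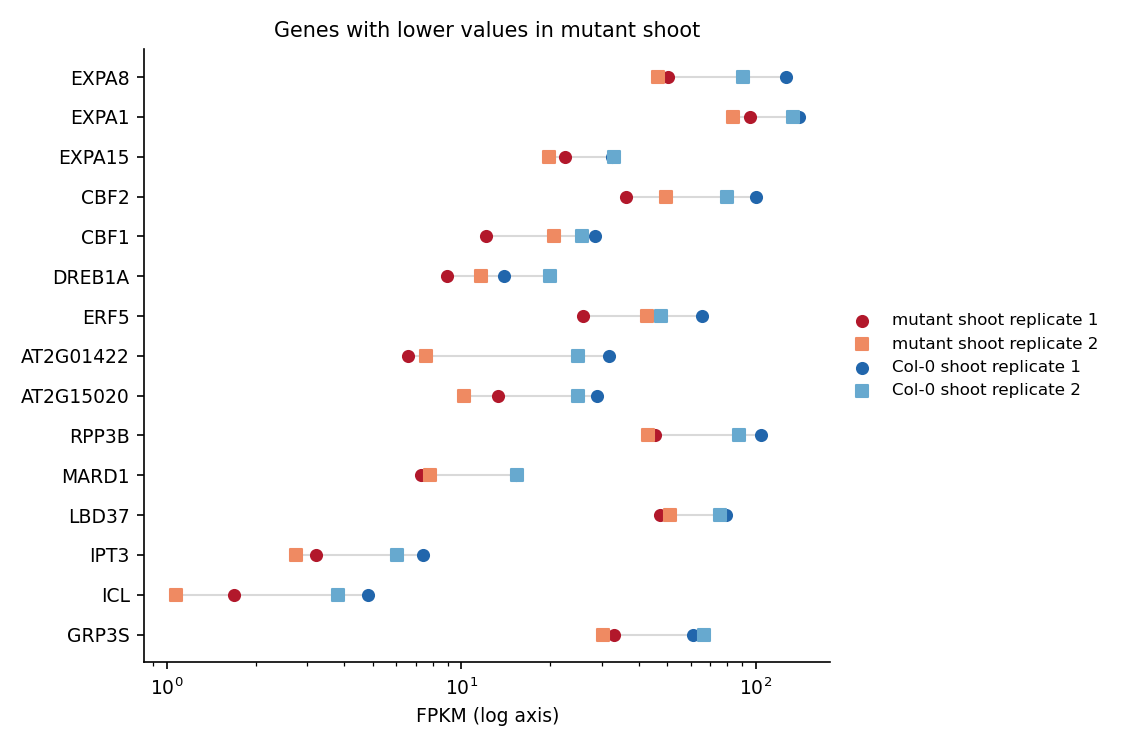
FPKM (horizontal log axis) in each of the 4 shoot libraries for 15 genes with lower values in mutant shoot (expansins, cold and ERF factors, then single genes). Points are single libraries, mutant in red and orange and Col-0 in blues; both mutant points lie to the left of both Col-0 points in each row, with the narrowest gaps for CBF1, DREB1A and ERF5.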

How the data were processed

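Each library's deposited table holds a FPKM value for every gene above 0, made by the authors, together with its name and locus. The build is TAIR10 per the submitters' processing notes. The aligner, the FPKM program and the library type were not given in the sources used here. Library totals are unknown, so no counting intervals are given. Of the tested genes 16682 were matched in the RefSeq table for symbols and 149 were not, and 2746 (16.3%) share a merged locus with another gene.

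The 4 shoot libraries entered limma 3.58.1 (R 4.3.3) as log2(FPKM + 1) (2 residual degrees of freedom), with a trended, robust variance prior and Benjamini-Hochberg adjustment over all 16831 genes. Changes of low genes are understated by the pseudocount. Span is the length of the locus in the tables, and its trend was removed by a lowess (fraction 0.3) on log10 span in each library. Rescaling used the median ratio to the geometric mean. Alternatives were other pseudocounts, filters and scalings, a fit of all 8 libraries, a replicate block, other moderation and leaving out each library. 41 lists, 7 of them markers, were written from general knowledge. Members and lists were chosen with earlier results of these data known.

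Named genes were drawn from the mutated genes, the 15 largest changes each way among genes of at least 5 FPKM without overlap, and up to 4 members of a list without overlap or otherwise up to 2. Not every gene that met this rule is named in the text. Those left out include GDU4, NDHJ and CML36 on the low side. LOX2, LOX3, AOS, AOC1, AOC4, PKT3, JAZ4, JAZ7, JAZ8, JAZ11, MYC2, MYC3, MYC4, COI1, AIB, BHLH13, CYP94B3, CYP94C1, PDF1.2, ORA59, CORI3, HB-12, NCED3, RAB18, HKT1, MPK3, DREB1A, DIC2, TCH2, TCH4, EXLA2, EXLA3, HA1, HA2, CAB1, RBCL, GBF3, CPK28, CIPK9, IPT3, ICL, CAD1, ARR7, HEI10 and its neighbours were chosen after their values were seen, as was the definition of held genes.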

Additional observations from a re-analysis of the deposited data

How the results depend on the processing

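The median change of all genes (0.38) was 0.01 after median-ratio rescaling, -0.02 after quantile normalization and -0.04 with the span trend removed, and 0.00 and -0.03 when rescaling or removal of the span trend was combined with leaving out Col-0 replicate 1, both combinations chosen after seeing the data.

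In limma 0 genes passed with a pseudocount of 0.1 or 0.5, no filter, a filter of 5 FPKM, rescaling, quantile normalization, removal of the span trend, or moderation without trend or not robust, with between 1050 and 2832 genes higher and 145 and 1533 lower before adjustment (p under 0.05). The fit of all 8 libraries gave 436 higher and 23 lower. Leaving out Col-0 replicate 1 gave 1287 higher and 1173 lower after rescaling, and 1078 and 1041 with the span trend removed. Leaving out 1 library gave 5 to 10456 higher and 0 to 2017 lower. With the replicate block 1814 were higher and 54 lower. The replicate numbers gave only 2 pairs, whose deviations correlated at 0.12 across genes. In both genotypes replicate 2 had the higher plastid sum (12040 against 7036 FPKM in the mutant, 21740 against 12980 FPKM in Col-0). With 2 pairs, whether the numbers mark a pairing cannot be told.

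The 488 higher and 196 lower genes became 1214 and 450 with a pseudocount of 0.1, 743 and 314 with 0.5, 910 and 75 with no filter, and 2062 and 1347 at 1.5-fold. The lower genes numbered 120 with a filter of 5 FPKM and 119 with the span trend removed. Leaving out 1 library gave 150 to 1790 higher and 112 to 1489 lower. Without Col-0 replicate 1 the counts were 154 and 109 after rescaling and 159 and 88 with the span trend removed. The causes were not tested.

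Small changes of single genes turned sign under some settings. After quantile normalization the change was 0.26 for AOS, -0.03 for JAZ11, 0.11 for NCED3 and 0.18 for HA1. With no filter it was 0.11 for COI1, 0.06 for CORI3, 0.03 for NCED3 and 0.11 for HKT1, and with the span trend removed it was -0.2 for MUM4. Without Col-0 replicate 1 and after rescaling it was 0.15 for AOS, -0.16 for MYC3 and -0.21 for MUM4. Without Col-0 replicate 1 and with the span trend removed it was 0.23 for AOS, -0.09 for MYC3, 0.02 for TCH2 and -0.28 for MUM4. Leaving out 1 library at a time gave -0.11 to 0.92 for CYP94B3, -0.69 to 0.18 for AOS, -0.15 to 0.3 for JAZ11, -0.14 to 0.64 for MYC3, -0.29 to 0.19 for COI1, -0.13 to 0.02 for HKT1, -0.2 to 0.64 for TCH4 and -0.19 to 0.61 for MUM4. Depth and 2 libraries a side limit precision, and small differences among low genes were not detectable.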

Other observations

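Indole glucosinolates, sulphur-containing defence compounds made from tryptophan, were a further group of defence genes. Of 13 tested genes 12 were above both Col-0 values (60.5% of all genes) and 7 after rescaling (32.1%), with a median of 0.38 above that of all genes, 0.36 without Col-0 replicate 1 and 0.37 with the span trend removed. MYB34, a regulator of the pathway, stood at 61 and 56.3 FPKM in the mutant, against 19.1 and 25.8 FPKM in Col-0, a change of 0.98. ASA1, the first enzyme of tryptophan synthesis, stood at 49.6 and 50.9 FPKM in the mutant and 10.7 and 23 FPKM in Col-0. Its change of 1.22 came to 0.89 without Col-0 replicate 1. CYP81F2, which modifies indole glucosinolates, stood at 3.81 and 6.25 FPKM in the mutant and 0.827 and 1.51 FPKM in Col-0. The aliphatic glucosinolates, made from methionine, had a median of 0.01 over 17 tested genes.

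The circadian clock genes spread widely around the median of all genes. CCA1, a morning factor, stood at 39.2 and 36.3 FPKM in the mutant and 7.77 and 21.9 FPKM in Col-0, and its change of 1.07 came to 0.56 without Col-0 replicate 1. GRP7, a clock-controlled RNA-binding protein gene, stood at 23.5 and 22.9 FPKM in the mutant, against 34.6 and 60.7 FPKM in Col-0, a change of -1.34, or -1.55 without Col-0 replicate 1. CAD1 (AT5G44070), the phytochelatin synthase gene, stood at 60.3 and 84.1 FPKM in the mutant and 12.6 and 29.8 FPKM in Col-0, and the cytokinin response regulator ARR7 at 18 and 25.1 FPKM in the mutant and 6.27 and 7.56 FPKM in Col-0.

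Aquaporins, the water channels of membranes, lay below the median of all genes. Of 22 tested members 0 were above both Col-0 values (60.5% of all genes) and 5 were below them (9.90%). After rescaling 0 were above (32.1%) and 18 below (30.1%). The median was -0.57, -0.20 without Col-0 replicate 1 and -0.41 with the span trend removed. The genes of sugar and dark starvation had a median of 0.64, which came to 0.17 without Col-0 replicate 1 and 0.47 with the span trend removed.

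The ribosomal RNA gene AT3G41768 was listed at 4430 FPKM in mutant replicate 1 and was not listed in the other 3 shoot libraries. AT1G26921 was listed at 128 FPKM in the same library and in none of the other 3. As for CAB1, no change is read from such values.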
